A study of Arabidopsis thaliana with 6 samples.

Results

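Tertiary trisomy 2 (AAa) was compared with simple trisomy 2 (AAA) in rosette leaves of Arabidopsis thaliana Col-0, and the 4 arrays of these karyotypes were chosen out of 6 by their titles, 2 for each karyotype. Both karyotypes carry 1 extra chromosome. In AAA it is a complete extra Chr.2. In AAa it is T(2L/3S), which joins Chr.2 up to AUR2 (AT2G25880) to the start of Chr.3 as far as AT3G20040. AAa plants carry the aur2-1 T-DNA insertion in AUR2 on this extra chromosome. AAA plants came from the same line but did not carry the T-DNA themselves. Plants of both karyotypes were 26 days old and were grown at 22 °C under 16 h light and 8 h dark. They were picked by leaf shape and then genotyped, and each RNA sample pooled 21 to 35 plants. The labels and methods do not say whether the arrays of 1 karyotype stand for independent plantings, so p-values measure the spread between these arrays, which may be partly technical.

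Set against AAA, AAa has 2 instead of 3 copies of Chr.2 beyond AUR2 and 3 instead of 2 copies of Chr.3 before AT3G20040. All other nuclear genes, termed equal-copy genes here, have the same number of copies in both karyotypes. RNA levels of plant genes often follow their copy number (a cis effect), whereas an unbalanced genome also changes genes outside the unbalanced part (trans effects). An array signal is the brightness of the probes of 1 gene in arbitrary units, and signals below are given after the arrays were centred on the median of the expressed genes of Chr.1, Chr.4 and Chr.5. Ratios are AAa over AAA on the log2 scale, with the standard error (SE) and the adjusted p-value of limma, and a gene passed the test at an adjusted p below 0.05. A gene counted as expressed from a mean signal of 78.9 over the 4 arrays. Where both signals of 1 karyotype lay below this cutoff, which is a filter and not a detection limit, the gene passed it through the other karyotype only, and the fold is given as at least the mean of the brighter karyotype over 78.9. This applied to 13 named genes, 11 dim in AAA and 2 dim in AAa. An adjusted p given for such a gene is that of its measured ratio and does not test the bound. Of the genes with a probe set of their own, 7244 were expressed and tested. They comprised 651 genes of Chr.2 beyond AUR2, 665 of Chr.3 before AT3G20040 and 5862 equal-copy genes, besides 65 genes of the plastid genome and AUR2 itself. Over all expressed genes, 25.4% passed.

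Replicate arrays correlated at r = 0.986 and 0.987 within karyotypes and at 0.955 to 0.956 between them. Median deposited signals were 171 and 160 in AAa, and 155 and 158 in AAA. Of the leaf mesophyll markers, only Rubisco activase (RCA) had a probe set of its own, with deposited signals of 28104 and 32034 in AAa and 39283 and 48047 in AAA. RCA lies on Chr.2 beyond AUR2, which has 2 copies in AAa and 3 in AAA. Its lower signal in AAa thus cannot tell copy number from mesophyll content. None of the 3 measured root markers was expressed, and their summed signals were 130 and 87.0 in AAa, against 58.1 and 64.0 in AAA. Of the guard cell markers 1 of 6 was measured (summed signals 209 and 184 in AAa, 172 and 190 in AAA), and of the trichome and epidermis markers 1 of 7 (173 and 172 in AAa, 119 and 128 in AAA). No listed marker of floral organs, pollen, seeds, phloem, xylem or meristem had a probe set of its own in the annotation used here. The RNA quality controls differed between the karyotypes: the 3′ over 5′ log2 signal ratio of ubiquitin was 0.16 and 0.23 in AAa, against 0.52 and 0.74 in AAA, that of actin was 1.18 and 1.12 in AAa, against 1.54 and 1.65 in AAA, and that of GAPDH was -0.15 and 0.08 in AAa, against -0.53 and -0.54 in AAA. On a second set of control probes the ratio of ubiquitin was again lower in AAa (1.14 and 1.35) than in AAA (1.68 and 1.56), while those of actin and GAPDH overlapped between the karyotypes. Their part in the differences below was not tested. In RNA of whole leaves, fewer cells of a type and less RNA per cell cannot be told apart.

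Genes of Chr.2 beyond AUR2 were lower in AAa by nearly the ratio of the copies. Their median log2 ratio was -0.53, or 1.44-fold higher in AAA, where the copy ratio is -0.58. It was -0.53 on AAa replicate 1 and -0.52 on AAa replicate 2, each against the AAA mean, and the 4 pairs of arrays gave -0.54 to -0.52. Of the 651 genes 600 had a negative ratio. In the test 413 were lower (63.4%) and 8 were higher (1.23%). Genes of Chr.3 before AT3G20040 were higher in AAa, with a median log2 ratio of 0.49 (1.41-fold) where the copy ratio is 0.58. AAa replicate 1 gave 0.50, AAa replicate 2 gave 0.52, and the array pairs ranged between 0.48 and 0.51. Of these 665 genes 623 had a positive ratio, 388 were higher (58.3%) and 5 were lower (0.752%). The equal-copy part of either chromosome stood at the level of the remaining genome: the median was 0.00 for Chr.2 up to AUR2 and 0.01 for Chr.3 from AT3G20040 on.

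The change of level lay at the breakpoints. The 10 expressed genes just before AUR2 had a median log2 ratio of -0.04 (1 higher, 1 lower), and the 10 just after it had -0.36 (0 higher, 5 lower). On Chr.3 the 10 genes before AT3G20040 had a median of 0.71 (8 higher, 0 lower), against -0.07 for the 10 after it (1 higher, 0 lower). On the extra chromosome of AAa, the gene at the Chr.2 breakpoint, AUR2, carries the aur2-1 T-DNA. Which of its copies gave the signal was not tested. AUR2 codes for an Aurora kinase that acts in cell division. Its signals were 958 and 954 in AAa, against 66.3 and 69.1 in AAA, which lie below the cutoff. AUR2 was thus at least 12.1-fold higher in AAa (adjusted p = 2.80e-12 for the measured ratio). Its paralogue AUR1 had 181 and 110 in AAa, against 119 and 114 in AAA, and did not pass (log2 ratio 0.28, adjusted p = 0.445).

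**Figure D1:**
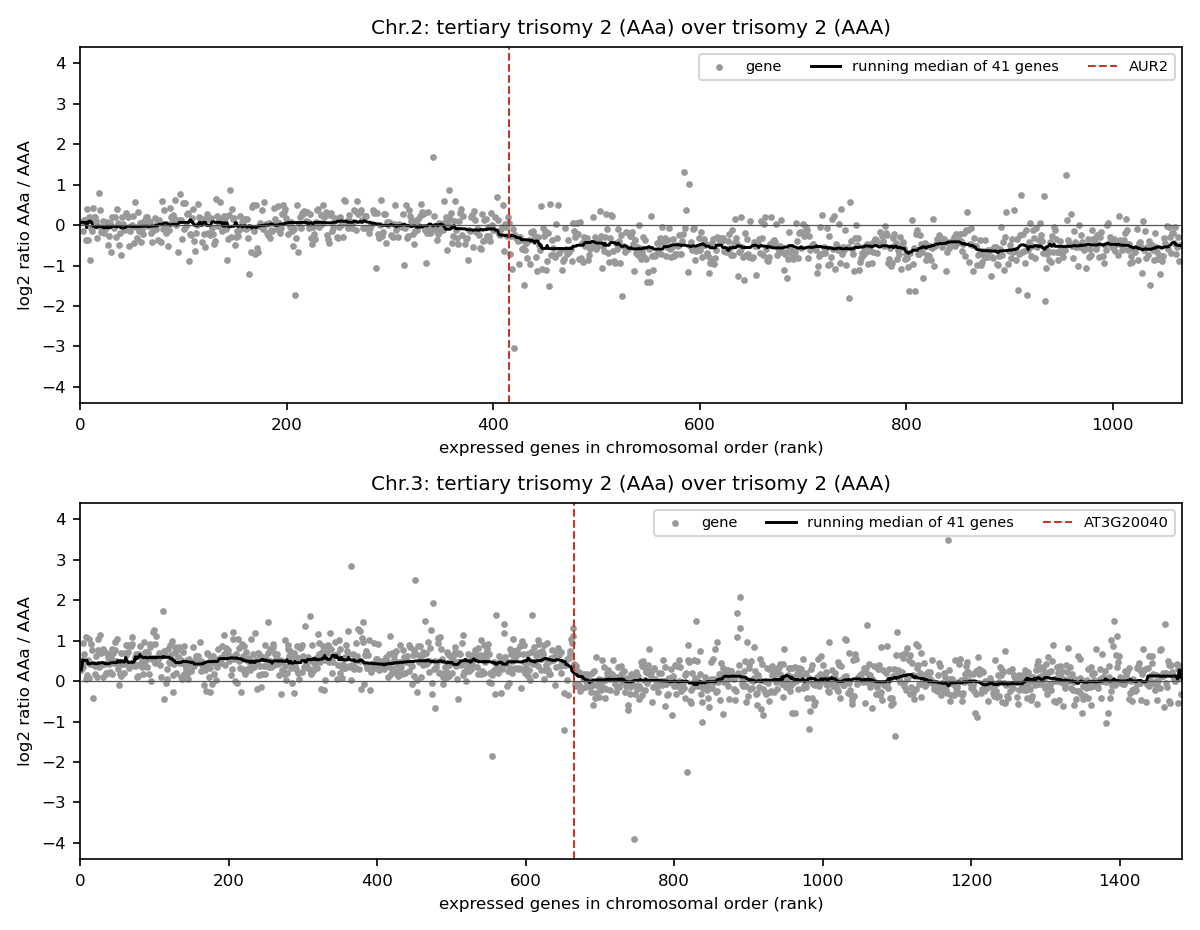
Log2 ratio of AAa over AAA for each expressed gene (grey points) in chromosomal order along Chr.2 (top) and Chr.3 (bottom), with the running median of 41 genes (black line) and the breakpoint (dashed line). AUR2 itself is not drawn. The running median lies near -0.53 beyond AUR2 and near 0.49 before AT3G20040, and near 0 on the other side of either breakpoint.

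Some genes of the segments did not follow the shift of their neighbours. Their shares, given next, lay near the 17.1% of equal-copy genes that passed the test. After the median of the segment was subtracted, 231 segment genes still passed the test. On Chr.2 these were 126 of 651 genes (19.4%), 63 above and 63 below the shift, and on Chr.3 they were 105 of 665 (15.8%), 61 above and 44 below. Without AAA replicate 1 the number was 83, and without AAA replicate 2 it was 92.

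UGT76B1, a glucosyltransferase that acts on salicylic acid and isoleucic acid, lay furthest above the Chr.3 shift. Its signals were 1367 and 1431 in AAa, against 199 and 192 in AAA, which is a log2 ratio of 2.84 (SE 0.13, adjusted p = 1.39e-11) and a departure of 2.35 from the segment. AT3G13610 (F6'H1), which encodes feruloyl-CoA 6'-hydroxylase of coumarin synthesis, had 1803 and 1921 in AAa, against 373 and 288 in AAA (2.51, SE 0.14, adjusted p = 2.03e-10, departure 2.02). The vacuolar sugar carrier SWEET16 had 209 and 134 in AAa, against 61.3 and 48.0 in AAA. AT3G14280 had 180 and 197 in AAa, against 64.1 and 37.6 in AAA, and AT3G04010 had 209 and 195 in AAa, against 56.5 and 64.6 in AAA. These last 3 genes lay below the cutoff in AAA and were at least 2.12-fold, 2.39-fold and 2.56-fold higher in AAa, so their place among the largest departures is not settled.

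Other genes with 3 copies in AAa were lower there. AT3G16530 had 2147 and 2567 in AAa, against 8359 and 8723 in AAA (log2 ratio -1.86, SE 0.12, adjusted p = 1.51e-09, departure -2.35). BCAT4, the aminotransferase that starts the chain elongation of methionine for aliphatic glucosinolates, had 1242 and 1167 in AAa, against 2751 and 2817 in AAA (-1.21, SE 0.11, adjusted p = 4.60e-07, departure -1.70). AT3G14395, MYR2 and AT3G15310 departed downwards by smaller amounts, between -1.17 and -0.94. Of these 3 only AT3G14395 was itself lower in AAa (-0.68, adjusted p = 0.0413), and it did not pass without AAa replicate 1, AAA replicate 1 or AAA replicate 2 (adjusted p = 0.283, 0.174 and 0.148).

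On Chr.2 beyond AUR2, the genes furthest below the shift included defence genes. PDF1.2b, a plant defensin, had 1431 and 1365 in AAa, against 12665 and 10563 in AAA (log2 ratio -3.05, SE 0.12, adjusted p = 4.47e-13, departure -2.52). Its probe set is of the type that can also bind related sequences, so PDF1.2b cannot be told apart from other PDF1 members. AT2G43590, a chitinase of the defensin and ethylene list, had 241 and 275 in AAa, against 880 and 1010 in AAA (-1.87, departure -1.34). TBL45, of a family of cell wall acetyltransferases, had 866 and 749 in AAa, against 2746 and 2702 in AAA (-1.76, departure -1.23). AT2G38180 and AT2G43200 departed by -1.27 and -1.21, and the probe set of AT2G43200 is shared with related sequences too.

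Other genes of this segment were higher in AAa, although it has fewer copies. The chitinase gene CHI (AT2G43570) had 3254 and 3152 in AAa, against 1989 and 1916 in AAA (log2 ratio 0.71, SE 0.11, adjusted p = 9.69e-05, departure 1.24). The nearby chitinase genes CHI and AT2G43590 thus differed in opposite directions. AT2G32140 departed upwards by 1.83. AT2G44240, AT2G32190 and AT2G42900 lay below the cutoff in AAA and were at least 2.06-fold, 1.54-fold and 1.52-fold higher in AAa. AT2G32190 did not pass without AAA replicate 1 (adjusted p = 0.132), and AT2G42900 did not pass without AAa replicate 2, AAA replicate 1 or AAA replicate 2 (adjusted p = 0.220, 0.160 and 0.0876). COR15A, a cold-induced protein that protects chloroplast membranes, was also higher, with 4099 and 4722 in AAa, against 3271 and 3510 in AAA (0.38, adjusted p = 0.0201, departure 0.91). Its tandem copy COR15B was lower by about the segment shift, with 3446 and 3147 in AAa, against 5565 and 4991 in AAA (-0.68). The call of COR15A ended without AAa replicate 2, AAA replicate 1 or AAA replicate 2 (adjusted p = 0.158, 0.164 and 0.0724).

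**Figure D2:**
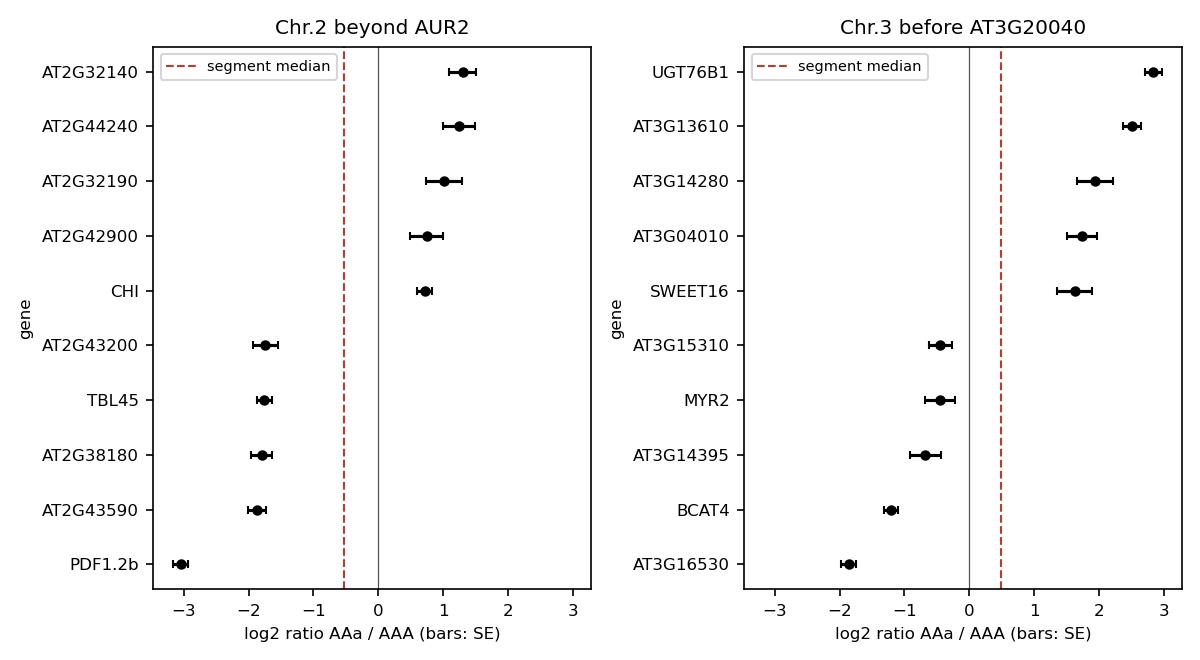
Log2 ratio of AAa over AAA (points, bars are the SE of the fit) for the 5 genes furthest above and the 5 furthest below the shift of each segment, Chr.2 beyond AUR2 on the left and Chr.3 before AT3G20040 on the right. The dashed line is the median of the segment (-0.53 and 0.49); PDF1.2b at -3.05 and UGT76B1 at 2.84 lie furthest from it. SWEET16, AT3G14280, AT3G04010, AT2G44240, AT2G32190 and AT2G42900 were below the cutoff of 78.9 in AAA, so their plotted ratios are not exact.

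Of the 5862 equal-copy genes, 1003 passed the test (17.1%), of which 504 were higher in AAa (8.6%) and 499 were lower (8.51%). Without AAA replicate 1 the test found 263 higher and 228 lower genes, and without AAA replicate 2 it found 299 and 246. Most differences were small. By measured ratio, 69 higher and 42 lower genes exceeded a log2 ratio of 1 in size. Among them are genes below the cutoff in 1 karyotype, whose ratios are not exact. Of all equal-copy genes, 90% lay between -0.53 and 0.59. The calls were spread over the genome, with 155 higher and 172 lower genes on Chr.1, 33 and 43 on Chr.2 up to AUR2, 85 and 65 on Chr.3 from AT3G20040, 98 and 100 on Chr.4, and 133 and 119 on Chr.5. In 55.8% of equal-copy genes the 2 signals of AAa did not overlap the 2 of AAA. With 2 arrays on either side, the smallest two-sided p of an exact permutation test is 0.333, so the calls rest on the spread that limma shares between genes.

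UGT73D1, a glycosyltransferase, had 294 and 297 in AAa, against 38.1 and 18.4 in AAA. Both AAA signals lay below the cutoff, and the gene was at least 3.75-fold higher in AAa (adjusted p = 2.39e-07 for the measured ratio). AT1G33950, with 360 and 356 in AAa, against 78.8 and 58.9 in AAA, was below it in AAA too and at least 4.54-fold higher in AAa, so the order of the highest genes is not settled. GH3.3, which conjugates auxin to amino acids, had 303 and 304 in AAa, against 92.8 and 97.3 in AAA (1.68, SE 0.19, adjusted p = 4.22e-06). PUB19, a U-box ubiquitin ligase of drought and abscisic acid responses, had 312 and 294 in AAa, against 83.5 and 127 in AAA (1.56, SE 0.21). The lectin gene AT1G52000 had 688 and 476 in AAa, against 143 and 191 in AAA (1.79, SE 0.19). In these 5 genes both AAa signals were more than 2 times either AAA signal. The other 7 of the 12 highest measured ratios are given by locus: AT3G28510 (2.07), AT1G02470 (1.72), AT3G28220 (1.69), AT4G00700 (1.62), AT1G65690 (1.62), AT5G43910 (1.61) and AT4G39670 (1.48).

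The lowest ratio belonged to AT3G23550, a MATE-type carrier, a family that moves small molecules across membranes. It had 205 and 157 in AAa, against 2954 and 2474 in AAA, and was 15.1-fold higher in AAA (log2 ratio -3.91, SE 0.15, adjusted p = 4.47e-13). PDF1.2, a defensin widely used as a marker of the joint jasmonate and ethylene response, had 263 and 232 in AAa, against 2846 and 2488 in AAA, and was 10.8-fold higher in AAA (-3.43, SE 0.13, adjusted p = 4.47e-13). The cytochrome P450 gene CYP71B22 had 104 and 68.3 in AAa, against 359 and 443 in AAA (-2.24, SE 0.21). AT4G32800 had 16.9 and 138 in AAa, against 268 and 376 in AAA (-2.72, SE 0.54), and the AAa arrays differed more from each other than in any of the 3 genes before. It did not pass without AAA replicate 2 (adjusted p = 0.0788). The remaining 8 of the 12 lowest were AT1G77960 (-2.14), AT2G18210 (-1.74), AT4G38540 (-1.56), AT4G22730 (-1.53), AT4G21870 (-1.52), AT4G27300 (-1.47), AT3G50900 (-1.36) and AT5G35660 (-1.33). AT5G35660 did not pass without AAa replicate 2, AAA replicate 1 or AAA replicate 2 (adjusted p = 0.134, 0.113 and 0.109).

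**Figure D3:**
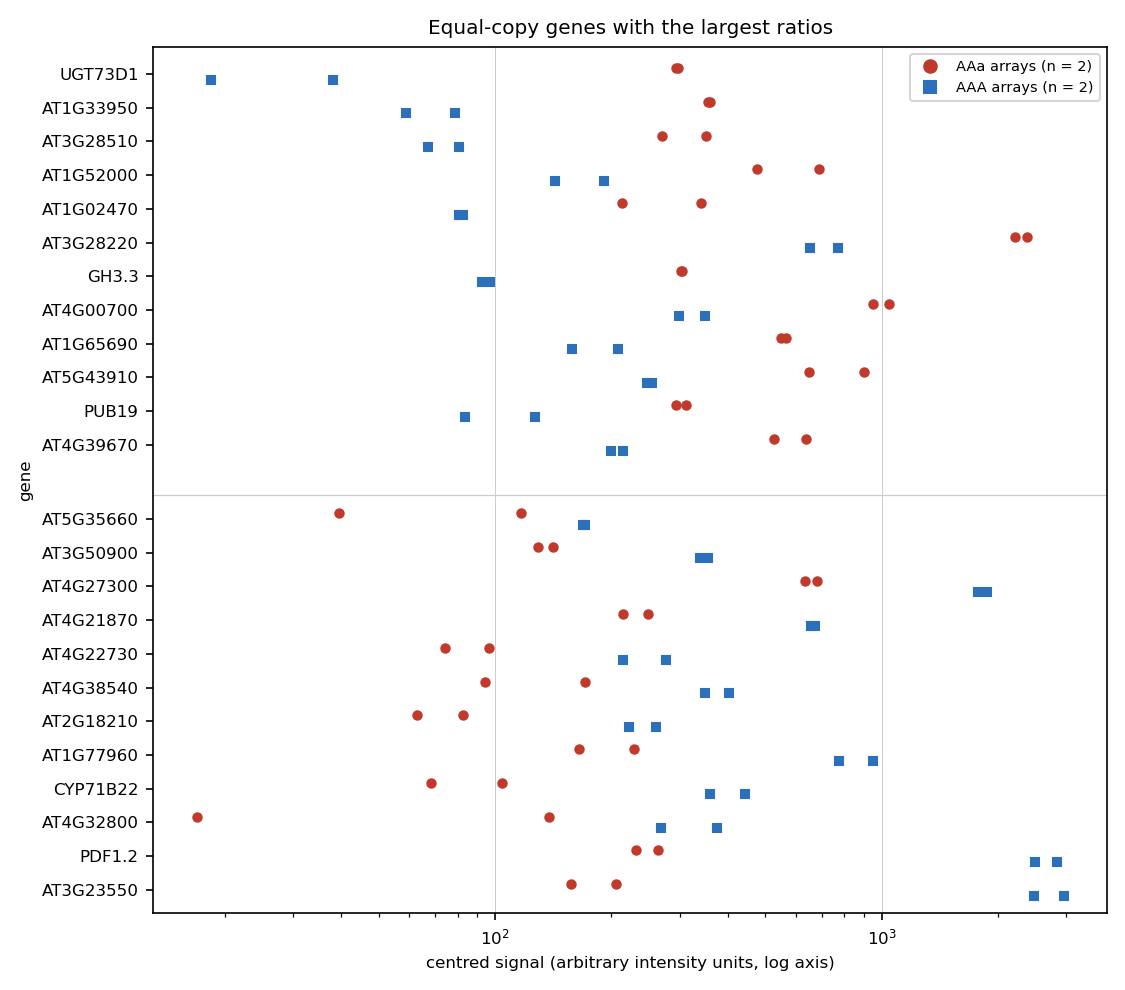
Centred signal (log axis, arbitrary units) of the 12 equal-copy genes with the highest and the 12 with the lowest ratios of AAa over AAA. Red circles are the 2 AAa arrays and blue squares the 2 AAA arrays. All 24 genes were picked among genes whose groups do not overlap. The AAA signals of UGT73D1 and AT1G33950 lie below the cutoff of 78.9. PDF1.2 and AT3G23550 are at 157 to 263 in AAa and at 2474 to 2954 in AAA.

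The genes were then grouped by function into 40 lists, which were chosen with earlier results of these data known. Of their 1108 members 261 had a probe set of their own and 199 were expressed, so a list stands for the members measured and not for the whole pathway. In 37 lists an equal-copy member was expressed, and 29 of these had at least 1 member past the test. The counts below are over equal-copy members, beside a median of 0.00 and 17.1% called over all equal-copy genes. Segment members are not in these counts, and not all of them that passed the test are named. Because of how the lists were chosen, a share of calls above 17.1% is by itself no support for a function.

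Defence genes split. In the list of defensins and ethylene signalling, 0 of 5 were higher and 3 were lower (median -0.50). They were PDF1.2, the defensin LCR68 (1372 and 1317 in AAa, 1791 and 2017 in AAA, log2 ratio -0.50) and AT4G16260 (186 and 186 in AAa, 277 and 253 in AAA, -0.51). EIN3, a transcription factor of ethylene signalling, stood at 0.19 and LCR69 at 0.05. LCR68 did not pass without AAA replicate 2 (adjusted p = 0.0754), and AT4G16260 did not pass when any 1 of the 4 arrays was left out (adjusted p = 0.0779 to 0.173). Of the 24 members of the salicylic acid list only 3 were measured. Both expressed equal-copy members were higher (2 of 2, median 1.02). GRX480, a glutaredoxin that links salicylic acid to the repression of jasmonate genes, had 450 and 434 in AAa, against 151 and 176 in AAA (1.44, SE 0.16, adjusted p = 4.42e-06). SAG101, a partner of EDS1 in immune signalling, had 432 and 313 in AAa, against 230 and 254 in AAA (0.60), and did not pass without AAa replicate 1 or AAA replicate 1 or 2 (adjusted p = 0.230, 0.130 and 0.0568). UGT76B1, another member of this list, is the Chr.3 gene described above.

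Of the jasmonate list only 2 members were expressed. JRG21, which hydroxylates jasmonate, was higher (257 and 235 in AAa, 137 and 160 in AAA, log2 ratio 0.73), but not without AAA replicate 1 (adjusted p = 0.0667), and JMT stood at 0.11. ORA47, a transcription factor that activates jasmonate synthesis, was lower, with 431 and 441 in AAa, against 940 and 1007 in AAA (-1.16, SE 0.13, adjusted p = 3.14e-06). In the list of WRKY factors, U-box ligases and early stress signalling, 1 of 7 was higher (PUB19) and 1 lower (median -0.26). The lower one was the zinc-finger repressor STZ, with 1884 and 1910 in AAa, against 2770 and 3021 in AAA (-0.61). Of the segment members, the U-box ligase PUB23 on Chr.2 was lower beyond its copy shift (-1.32, departure -0.79). PUB24 on Chr.3 was higher (0.65, where the median of its segment was 0.49), but did not pass without AAa replicate 1 or AAA replicate 1. WRKY47 was the only one of 5 expressed WRKY genes past the test (270 and 295 in AAa, 154 and 171 in AAA, 0.80). Of 4 expressed SBT subtilases 2 were higher and 2 did not pass (lowest log2 ratio 0.09), a family chosen after its values were seen. SBT3.3 takes part in immune priming. SBT3.5 had 724 and 809 in AAa, against 357 and 319 in AAA (1.18), and SBT3.3 had 592 and 531 in AAa, against 268 and 272 in AAA (1.05).

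Among genes of protein folding and turnover, more members passed the test on the higher than on the lower side. In the heat shock list 2 of 9 were higher and 1 lower (median 0.33). Hsp70-2, a cytosolic chaperone, had 1617 and 1692 in AAa, against 716 and 625 in AAA (log2 ratio 1.31, SE 0.12, adjusted p = 5.18e-07). The immunophilin ROF2 (AT5G48570) had 458 and 391 in AAa, against 233 and 218 in AAA (0.91, SE 0.16). The lower member was AT4G21870, a small heat shock protein of the list, with 249 and 214 in AAa, against 671 and 655 in AAA (-1.52). Among the Chr.3 members Fes1A, which binds cytosolic Hsp70, had 726 and 729 in AAa, against 295 and 270 in AAA (1.37, departure 0.88), whereas AT3G09440 was higher by about its copy shift (0.60). The small heat shock gene AT5G37670 stood at 0.74 and did not pass (adjusted p = 0.0523).

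Of the endoplasmic reticulum folding genes 2 of 4 were higher and 0 lower (median 0.37). ATERDJ3B, a J-domain partner of the luminal Hsp70, had 2993 and 3320 in AAa, against 1787 and 1854 in AAA (log2 ratio 0.79, SE 0.11, adjusted p = 4.34e-05). The calreticulin gene CRT1b had 3621 and 3912 in AAa, against 2587 and 2835 in AAA (0.48), and did not pass without AAA replicate 1 (adjusted p = 0.0750). BZIP28, a membrane-bound transcription factor of the unfolded protein response on the Chr.3 segment, was higher beyond its copy shift (1.01, departure 0.52). Outside the list, and chosen after their values were seen, the derlins DER2.1 and DER1 and the lectin OS9, which act in the disposal of misfolded proteins, had log2 ratios of 0.71, 0.53 and 0.51. DER1 did not pass without AAA replicate 2 (adjusted p = 0.131), and OS9 did not pass without AAa replicate 1 or AAA replicate 2 (adjusted p = 0.0741 and 0.0955).

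Autophagy recycles cell contents in the vacuole, and its ATG8 proteins coat the growing membrane. Of the autophagy list 2 of 8 were higher and 0 lower (median 0.23). ATG8B had 283 and 259 in AAa, against 127 and 144 in AAA (log2 ratio 1.0, SE 0.19), and APG8A had 946 and 790 in AAa, against 436 and 426 in AAA (1.0, SE 0.14). On the Chr.3 segment, ATG8H was higher beyond its shift (1.14, departure 0.65) and APG8H by about it (0.66). ATG8C, ATG8D, ATG8F and ATG8G stood at 0.04, 0.18, 0.28 and 0.48 and did not pass. Of the proteasome list 1 of 4 was higher (AT5G23540, 0.34, median of the list 0.14), and it did not pass without AAa replicate 2 or AAA replicate 1 or 2 (adjusted p = 0.335, 0.106 and 0.279). The Chr.2 member of the proteasome list, AT2G32730, was lower by about its copy shift (-0.50, adjusted p = 0.00606, departure 0.03). In the list of chlorophyll breakdown and senescence 2 of 3 were higher (median 0.50). The vacuolar protease gene BETA-VPE had 788 and 745 in AAa, against 336 and 361 in AAA (1.14, SE 0.14, adjusted p = 6.82e-06), while GAMMA-VPE stood at 0.01. PPDK, which serves the export of nitrogen from ageing leaves, had 2322 and 2223 in AAa, against 1585 and 1638 in AAA (0.50).

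Among equal-copy genes of chlorophyll synthesis, the photosystems and the Calvin cycle, all that passed the test were lower in AAa. In the list of chlorophyll and tetrapyrrole synthesis 0 of 7 were higher and 3 lower (median -0.26). PORB, which reduces protochlorophyllide in the light, had 7320 and 7598 in AAa, against 12116 and 12633 in AAA (log2 ratio -0.73, SE 0.11, adjusted p = 8.11e-05). GSA1, which makes the first committed precursor of the pathway, had 1825 and 1620 in AAa, against 2436 and 2454 in AAA (-0.51). The third was AT1G74470, which encodes geranylgeranyl reductase (-0.42). The paralogues HEME1 and HEME2, uroporphyrinogen decarboxylases on different segments, followed their copies in opposite directions: HEME1 on Chr.3 was higher (0.68) and HEME2 on Chr.2 was lower (-0.53).

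Of the nuclear genes of photosystems and light harvesting 3 of 5 were lower and 0 higher (median -0.40), namely PSAE-1 of photosystem I (-0.43), PSBY of photosystem II (-0.40) and ATPC1 of the plastid ATP synthase (-0.48). Of the Calvin cycle and photorespiration genes 3 of 6 were lower and 0 higher (median -0.32). SBPASE, sedoheptulose bisphosphatase, had 13576 and 14313 in AAa, against 19847 and 20419 in AAA (-0.53, SE 0.11, adjusted p = 0.00185), PRK, phosphoribulokinase, stood at -0.38 and HPR, the hydroxypyruvate reductase of photorespiration, at -0.34. The Chr.2 members RCA (-0.56), PSBW (-0.56) and LHCB4.3 (-0.72) were lower by about their copy shift or a little more. Of the 65 plastid genes, 21 were lower and 1 was higher (petN, 0.54), with a median of -0.29, and 52 had a negative ratio. The lowest was psbI, with 4856 and 4678 in AAa, against 7424 and 8259 in AAA (-0.72), followed by psbK (-0.69), atpB (-0.68), ndhJ (-0.66), atpA (-0.66) and rbcL (-0.64). The 2 AAA arrays differed from each other by a median of -0.17 over the plastid genes. Without AAA replicate 2 the count of lower plastid genes was 6 (median -0.20), and without AAA replicate 1 it was 13 (median -0.36). It was 11 with 2 higher under quantile normalization, described next (median -0.17), 7 without the intensity trend of the test and 7 without the filter on dim genes.

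Of the nuclear genes just named, PRK, PSBY, HPR, PSAE-1, AT1G74470, ATPC1, RCA and SBPASE had signals above 10000 on all arrays, and the brightest equal-copy genes as a whole had negative median ratios. The plastid genes spanned a wide range, 21 with a mean signal above 5000 and 29 below 1000, and of these 9 and 5 were lower in AAa. Of the 34 equal-copy genes with a mean signal above 10000, 19 were lower and 1 was higher (median log2 ratio -0.34), and of the 102 between 5000 and 10000, 29 were lower and 5 higher (median -0.16). For the 3098 genes between 200 and 1000 the median was 0.00, with 279 higher and 248 lower. With the 4 arrays brought to the same distribution (quantile normalization), the calls of PRK (-0.01), PSBY (-0.03), HPR (-0.04), PSAE-1 (-0.06), AT1G74470 (-0.07), ATPC1 (-0.08), RCA (-0.11) and SBPASE (-0.23) ended, while PORB and GSA1 still passed. The call of HPR also ended when any 1 array was left out (adjusted p = 0.0908 to 0.135), that of PSAE-1 and PSBY without AAa replicate 1 or AAA replicate 2 (0.109 and 0.131 for PSAE-1, 0.140 and 0.207 for PSBY), and that of PRK, ATPC1 and AT1G74470 without AAa replicate 1, AAA replicate 1 or AAA replicate 2 (0.0533 to 0.151). The call of RCA ended without AAA replicate 2 (adjusted p = 0.0894).

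**Figure D4:**
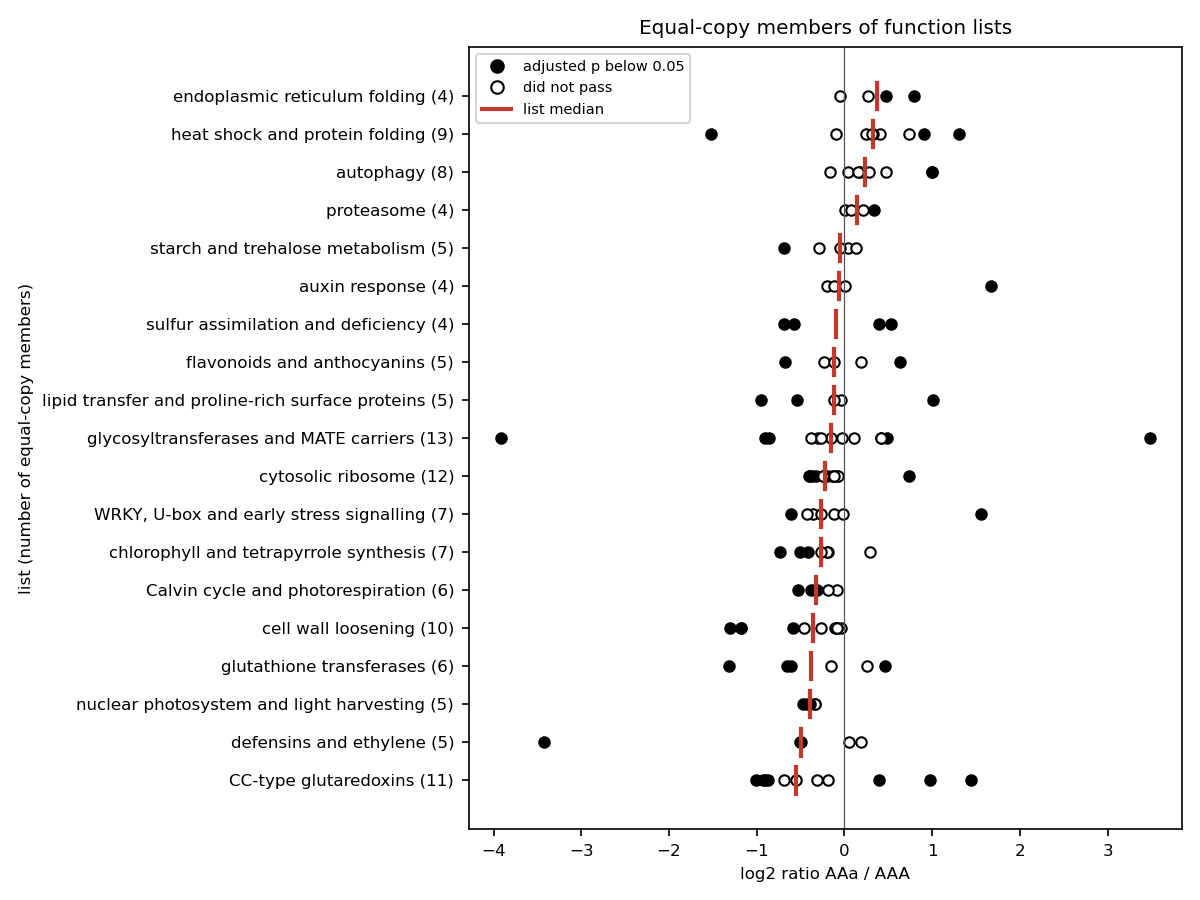
Log2 ratio of AAa over AAA for the equal-copy members of each function list with at least 4 of them (number in brackets). Filled circles passed the test, open circles did not, and red bars are list medians, which run between 0.37 for endoplasmic reticulum folding and -0.55 for the CC-type glutaredoxins. UGT73D1 (below 78.9 in AAA) and XTH33 (below it in AAa) are drawn at their measured ratios, which are not exact.

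Of the genes that loosen the cell wall, 0 of 10 were higher and 4 were lower (median -0.36). EXLA1, an expansin-like protein, had 498 and 467 in AAa, against 1098 and 1085 in AAA (log2 ratio -1.18, SE 0.13, adjusted p = 1.81e-06). The xyloglucan endotransglucosylases XTH33 and XTH19 had lower signals: XTH33 had 77.4 and 47.3 in AAa, below the cutoff, against 145 and 154 in AAA (at least 1.89-fold higher in AAA), and XTH19 had 70.6 and 96.5 in AAa, against 193 and 182 in AAA (-1.18). The expansin-like EXLB1 (-0.59) did not pass without AAa replicate 1 or AAA replicate 2 (adjusted p = 0.0988 and 0.465). On Chr.2 the expansin EXPA4 was lower beyond its copy shift (-1.09, departure -0.56), and EXPA8 (-0.34) and XTH32 (-0.50) were lower within it. EXPA8 did not pass when any 1 array was left out (adjusted p = 0.0572 to 0.141), and XTH32 not without AAA replicate 2 (0.109). Outside the list, and chosen after their values were seen, α-tubulin TUA6 had 3322 and 3464 in AAa, against 4686 and 5069 in AAA (-0.52), the microtubule-bundling ATMAP65-6 had 830 and 963 in AAa, against 1394 and 1451 in AAA (-0.67), and the receptor kinase FER, which senses RALF peptides and wall integrity, stood at -0.44. FER did not pass without AAa replicate 1, AAA replicate 1 or AAA replicate 2 (adjusted p = 0.0855, 0.0714 and 0.0797). Of 5 RALF peptide genes RALFL31 (-0.89) and RALFL33 (-0.41) were lower and 0 higher, the first not without AAA replicate 1 (adjusted p = 0.0809) and the second not without AAa replicate 1 or AAA replicate 2 (0.0999 and 0.228).

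Among lipid transfer and proline-rich surface proteins 1 of 5 was higher and 2 were lower (median -0.12). The higher one, AT4G12490, had 2268 and 3189 in AAa, against 1534 and 1166 in AAA (log2 ratio 1.01). AT4G22470 had 97.7 and 99.8 in AAa, against 197 and 185 in AAA (-0.95). AT2G10940 stood at -0.54, but its call ended without AAA replicate 2 (-0.23) and under quantile normalization (-0.26).

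Redox and detoxification genes differed in both directions. CC-type glutaredoxins are small plant redox proteins that bind TGA transcription factors, and 3 of 11 were higher and 4 lower (median -0.55). The higher ones were GRX480, AT4G33040 (257 and 288 in AAa, 139 and 137 in AAA, log2 ratio 0.98) and AT3G62950 (0.39). The lower ones were AT1G03020 (113 and 113 in AAa, 205 and 253 in AAA, -1.01), AT1G06830 (542 and 637 in AAa, 1077 and 1073 in AAA, -0.87), AT4G15680 (-0.93) and AT4G15660 (-0.90). AT3G62950 did not pass when any 1 array was left out (adjusted p = 0.0850 to 0.188), AT4G15680 did not pass without AAA replicate 1 (0.0560) and AT4G15660 not without AAA replicate 2 (0.0535). Of the glutathione transferases 1 of 6 was higher and 3 were lower (median -0.38). GSTU20 had 2250 and 1852 in AAa, against 5577 and 4637 in AAA (-1.32, SE 0.13, adjusted p = 5.49e-07), GSTU18 stood at -0.66, GSTU26 at -0.61 and GSTU16 at 0.47. GSTU18 did not pass without AAA replicate 1 (adjusted p = 0.0907), GSTU26 not without AAa replicate 2 or AAA replicate 1 (0.242 and 0.354), and GSTU16 not without AAa replicate 2 or AAA replicate 1 or 2 (0.215, 0.109 and 0.101).

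NDB2, an alternative NADH dehydrogenase of mitochondria, was higher (853 and 941 in AAa, 553 and 514 in AAA, log2 ratio 0.75), and AT2G21640 of the same list of antioxidant and mitochondrial stress genes was below the cutoff in AAa and lower there (at least 1.64-fold higher in AAA), but not without AAA replicate 1 (adjusted p = 0.0991). ATMDAR2, a monodehydroascorbate reductase that regenerates ascorbate, had 937 and 892 in AAa, against 2061 and 1617 in AAA (-1.0, SE 0.13). In the list of glycosyltransferases and MATE carriers 2 of 13 were higher and 3 lower (median -0.16). They include the glycosyltransferase UGT73D1 and the carrier AT3G23550 described above. The carriers AT1G71140 (226 and 275 in AAa, 453 and 481 in AAA, -0.90) and AT5G52050 (183 and 197 in AAa, 375 and 318 in AAA, -0.86) were also lower, and AT1G61890 was higher (0.49), though not without AAa replicate 1 or AAA replicate 1 (adjusted p = 0.0951 and 0.123).

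Of the CYP71B cytochrome P450 genes 3 of 11 were higher and 4 lower (median log2 ratio -0.27). Next to CYP71B22, CYP71B24 had 528 and 414 in AAa, against 227 and 280 in AAA (0.89) and CYP71B23 had 1139 and 1056 in AAa, against 771 and 751 in AAA (0.53). CYP71B26 (0.47), CYP71B29 (-0.58), CYP71B34 (-0.50) and CYP71B36 (-0.55) passed over all arrays but not without AAA replicate 2 (adjusted p = 0.0520, 0.261, 0.228 and 0.268). CYP71B29 also did not pass without AAa replicate 1 (0.151), CYP71B34 and CYP71B36 not without AAa replicate 2 (0.149 and 0.317), and CYP71B36 not without AAA replicate 1 (0.0823).

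Glucosinolates are sulfur-rich defence compounds of the cabbage family. All expressed members of the aliphatic glucosinolate list had negative ratios, including BCAT4 on the segment that is gained in AAa. Of the 2 equal-copy members GSTU20 was lower and AOP1 did not pass (-0.19). AT2G31790 on Chr.2 was lower (-0.79), and its departure from the copy shift (-0.26) did not pass (adjusted p = 0.151). UGT74B1, which adds the glucose in glucosinolate synthesis and was the 1 expressed member of the indole list, had 988 and 808 in AAa, against 1124 and 1169 in AAA (-0.36), and did not pass without AAa replicate 2, AAA replicate 1 or AAA replicate 2 (adjusted p = 0.350, 0.149 and 0.208). In sulfur assimilation 2 of 4 were higher and 2 lower (median -0.09). The ATP sulfurylase paralogues moved apart, with APS3 lower (649 and 643 in AAa, 1043 and 1039 in AAA, -0.69) and APS4 higher (1148 and 1031 in AAa, 682 and 827 in AAA, 0.54). The sulfite reductase SIR was lower (2455 and 2520 in AAa, 3563 and 3849 in AAA, -0.57), and AT1G04770 was higher (0.39). APS4 did not pass without AAA replicate 1 (adjusted p = 0.113) and AT1G04770 not without AAa replicate 1 or AAA replicate 1 or 2 (0.211, 0.104 and 0.148).

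In the flavonoid list 1 of 5 was higher and 1 lower (median -0.12), and these were related enzymes of the same compounds: the glucosyltransferase UGT78D2 (0.63) and the rhamnosyltransferase UGT78D1 (-0.68), both not past the test without AAA replicate 2 (adjusted p = 0.103 and 0.0545). HCT of lignin synthesis was lower (2313 and 2698 in AAa, 3594 and 3346 in AAA, log2 ratio -0.47), but not without AAA replicate 1 (adjusted p = 0.0864). LUP5, a triterpene synthase, had 187 and 186 in AAa, against 72.7 and 65.7 in AAA, below the cutoff. It was at least 2.37-fold higher in AAa (adjusted p = 0.000132 for the measured ratio). QQS, an orphan gene that affects the split between starch and protein, was the 1 lower gene of 5 in the starch list (median -0.05), with 963 and 715 in AAa, against 1404 and 1270 in AAA (-0.69), and did not pass without AAA replicate 1 (adjusted p = 0.0512). The sugar carriers SWEET1 (0.51) and SWEET17 (-0.50) differed in opposite directions, and both calls ended without AAA replicate 1 (adjusted p = 0.0647 and 0.0998).

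Of the list of cold, drought and abscisic acid both equal-copy members were higher (2 of 2, median 0.79). The dehydrin LTI30 had 404 and 363 in AAa, against 192 and 144 in AAA (log2 ratio 1.21, SE 0.18, adjusted p = 7.00e-05). COR47 stood at 0.37 and did not pass without AAa replicate 2, AAA replicate 1 or AAA replicate 2 (adjusted p = 0.229, 0.189 and 0.0905). Of the 31 members of the clock list only 2 were measured. Both were higher (2 of 2, median 0.45), TIC by 0.52 and GI by 0.39. TIC did not pass without AAA replicate 2 (adjusted p = 0.0784), and GI not without AAa replicate 1, AAa replicate 2 or AAA replicate 2 (0.0720, 0.0507 and 0.362). In the auxin list 1 of 4 was higher, GH3.3 (median -0.06), whereas the related WES1 had 157 and 103 in AAa, against 139 and 152 in AAA (-0.20), and did not pass. On Chr.3, AT3G15450 of the list of sugar starvation and darkness had 4693 and 4964 in AAa, against 2389 and 2029 in AAA, and was higher beyond its copy shift (1.13, departure 0.64). Of 6 calmodulin-like genes 1 was higher and 1 lower, CML37 with 144 and 145 in AAa, against 56.3 and 47.8 in AAA, where it was below the cutoff (at least 1.83-fold higher in AAa), and CML42 at -0.63. The second did not pass without AAA replicate 2 (adjusted p = 0.109).

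Of the cytosolic ribosome 1 of 12 was higher and 4 lower (median -0.22). AT5G39850 was the higher one (207 and 236 in AAa, 130 and 136 in AAA, log2 ratio 0.74), and AT4G16720 (-0.41), AT5G20290 (-0.39), AT2G01250 (-0.37) and AT5G27850 (-0.32) were the lower ones. The calls of all 4 lower genes ended under quantile normalization (-0.23, -0.15, -0.18 and -0.19) and without AAA replicate 1 (adjusted p = 0.0917, 0.515, 0.0739 and 0.193), and that of AT5G39850 ended without AAa replicate 2 or AAA replicate 1 (0.0655 and 0.0535). Without AAa replicate 1 the calls of AT5G20290 and AT5G27850 ended (0.241 and 0.114), without AAa replicate 2 those of AT2G01250 and AT5G27850 (0.286 and 0.0582), and without AAA replicate 2 those of the same 2 genes (0.261 and 0.0951). The lists of gibberellin and brassinosteroid, cytokinin, iron, cell cycle and DNA replication, plastid ribosome, peroxisome, floral transition, and sugar starvation and darkness had no equal-copy member past the test. In those of wax and cutin, phosphate and nitrogen no member was expressed.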

How the data were processed

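RNA had been hybridised to Affymetrix ATH1 arrays, and the deposited values are linear probe set signals, an intensity that the authors computed with GCOS (the sources used here name no version). On each array the mean signal after trimming 2% at either end was 500. The study analysed other values (GC-RMA and vsn), which were not used here. Signals below 1 (245 to 445 per array, 0 among expressed genes) were set to 1 and taken to log2, and the median of the expressed Chr.1, Chr.4 and Chr.5 genes was subtracted array by array. Of 22746 probe sets without controls, 13513 had 1 gene name, 503 had several and 8730 had none in the probe annotation; 77 of the first kind matched no locus of the RefSeq gene table used for symbols and order. The brightest probe set stood for a gene. A gene counted as expressed from the 40th percentile of the probe set means upwards (a signal of 78.9).

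AAa and AAA were compared with limma 3.58.1 in R 4.3.3 (lmFit, eBayes with an intensity trend, two-sided, 2 residual degrees of freedom), adjusted by Benjamini-Hochberg over 7244 genes. Departures from a segment's shift were tested after its median ratio was subtracted from the AAa arrays. The number of arrays limits the precision. The wild-type arrays did not enter. Groups and replicate numbers came from the sample titles. Named genes were the 12 highest and 12 lowest equal-copy ratios past the test without overlap, the 5 largest departures each way per segment, up to 4 members per list with a call and its further called members, and AUR2, PDF1.2, PDF1.2b, PDF1.2c, QQS, ROF2, UGT76B1, ACT2, ACT8, UBQ10 and PP2AA3; PDF1.2c and the last 4 had no probe set of a single gene and were not analysed here. The comparison, the lists and the rule were chosen with earlier results of these data known. AUR1, ORA47, the SBT, WRKY47, SWEET, CML, RALFL and CYP71B genes, LUP5, DER1, DER2.1, OS9, TUA6, ATMAP65-6, FER, ATMDAR2, the plastid genes and the list members given without passing were chosen after their values were seen. The test was tried on simulated data in which 200 of 7244 genes were changed. It recovered 4.48% of the changes of log2 size 0.5, 60.6% of those of size 1 and 91.2% of those of size 2. Small differences were thus mostly missed in that trial. In the data 25.4% of expressed genes passed, a larger share than the trial changed, so recovery in the comparison may differ. Alternatives were other centrings, quantile normalization, the floor, the filter, no intensity trend, the mean of a gene's probe sets, the replicate number as a block, and leaving out each array.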

Additional observations from a re-analysis of the deposited data

How the results depend on the processing

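Both segment medians kept their sign under all 14 alternatives run, and no named gene past the test reversed. The balance of equal-copy calls did not hold: against 504 higher and 499 lower, there were 618 and 453 without centring, 431 and 495 centred on all expressed genes and 442 and 501 centred on all equal-copy genes. Of 167 named genes past the test, 93 passed under every alternative and 74 lost their call under at least 1, most often without the filter on dim genes (60), without AAA replicate 1 (49) or without AAA replicate 2 (48). Without the filter, 13286 genes were tested and 185 equal-copy genes were higher and 298 lower, with 84 departures, against 231; without an intensity trend 385 were higher and 310 lower, with 137 departures. Leaving out 1 array gave 263 to 437 higher and 228 to 449 lower equal-copy genes and 83 to 188 departures, fewest without AAA replicate 1 (263, 228 and 83) and AAA replicate 2 (299, 246 and 92). With an AAA array left out, the lone AAA array is assumed to vary like the AAa pair.

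The median of Chr.2 beyond AUR2 was -0.50 without centring, -0.55 centred on all expressed genes, -0.54 centred on all equal-copy genes, -0.48 without the filter and -0.57 with a filter at the 60th percentile, and -0.54 to -0.52 with 1 array left out. That of Chr.3 before AT3G20040 was 0.52, 0.48, 0.48, 0.42 and 0.51 under the same settings, and 0.49 to 0.52 with 1 array left out. Of 512 list medians under the alternatives, 48 moved by more than the spread between array pairs and 9 changed sign, all 9 in the lists of auxin, sugar starvation, phenylpropanoids, and antioxidant and mitochondrial stress. The replicate numbers did not pair the arrays (correlation of deviations -0.06); with the number as a block 541 equal-copy genes were higher and 540 lower, with 252 departures, and 1 named gene lost its call. Under a mean signal of 200, 112 of 1591 equal-copy genes were higher and 77 lower.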

Other observations

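Probe sets without a gene name in the annotation used here were left out of the comparison of genes. Of these 8730 probe sets 6048 were expressed, and between AAa and AAA 818 were higher and 987 lower in AAa (29.8% past the test when fitted with them), with a median log2 ratio of -0.01. A log2 ratio above 2 was found for 14 of them and one below -2 for 2. Their chromosomes are not known here, so they were not split into segment and equal-copy genes.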
